A study of Mus musculus with 8 samples.

Results

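The IL-1 and TNF ligands and receptors were followed here as 10 genes chosen by their place in the pathway, namely Il1a, Il1b, Il18 and the antagonist Il1rn, the receptor genes Il1r1, Il1r2 and Il1rap, and Tnf with its receptor genes Tnfrsf1a and Tnfrsf1b. They are 10 of the 32849 gene symbols in the deposited table, and the rule that defines them uses no measured value. The libraries came from esophagi of healthy, untreated mice, 4 of mice that lack monoacylglycerol lipase throughout the body (MGL KO) and 4 of wild-type (WT) mice from the same in-house breeding. MGL, encoded by Mgll, degrades the endocannabinoid 2-arachidonoylglycerol, and the comparison asked whether its loss alone alters the esophageal transcriptome. According to the study's methods, male and female young adult mice were used, and the age and sex of each library are not given in the sources used here. The labels do not state that each library came from a separate mouse, so the p-values measure the spread between these samples.

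IL-1α and IL-1β both bind the receptor IL-1R1, which signals once the accessory protein IL-1RAcP, encoded by Il1rap, joins it. IL-1Ra, the product of Il1rn, occupies IL-1R1 without signaling, and IL-1R2 is a decoy that binds IL-1 but lacks the signaling domain. TNF acts through TNFR1 (Tnfrsf1a), found on most cells, and TNFR2 (Tnfrsf1b), found mainly on immune and endothelial cells, and both systems converge on NF-kB. In squamous epithelia, IL-1α and IL-1Ra are known as products of keratinocytes, whereas macrophages are a classical source of IL-1β and TNF.

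The start sites of the 3 classical ligands share a sequence feature, which is why their promoters are shown. RefSeq promoters on GRCm38.p6 were found for all 10 genes, 13 promoters in all, and the last 120 bases before the start are printed 5′ to 3′ on the strand of the gene, with TATAAA in capitals. The stretches lie on the reverse strand at chr2:129309973-129310092 (Il1a), chr2:129371140-129371259 (Il1b) and chr17:35202008-35202127 (Tnf).
Il1a: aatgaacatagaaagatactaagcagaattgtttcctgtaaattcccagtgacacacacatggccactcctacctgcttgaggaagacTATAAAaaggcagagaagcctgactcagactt
Il1b: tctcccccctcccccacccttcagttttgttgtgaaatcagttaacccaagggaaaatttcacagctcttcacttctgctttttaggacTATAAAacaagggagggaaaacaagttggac
Tnf: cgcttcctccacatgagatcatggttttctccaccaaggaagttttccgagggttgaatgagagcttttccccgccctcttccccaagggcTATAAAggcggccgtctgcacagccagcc
The letters TATAAA, searched on the strand of the gene, began 32 bases before the start in Il1a, 31 in Il1b and 29 in Tnf. They were not found in the last 60 bases before any other start of these genes, and 2.9% of all 32851 promoters held them in that window. No match says only that these letters are not in this window. In the 250 bases before the start, Il1b held 2 CG dinucleotides, Il1a held 3 and Tnf held 10, within the range of the other members, from 1 (Il18 and a start of Il1rn) to 30 (Il1rap), and the median over all promoters was 6.

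Mgll was lower in every MGL KO library. Its expression, in CPM of the kept library size scaled by TMM factors (normalized counts, hereafter normalized CPM), was 12.6, 15.97, 13.1 and 13.2 in MGL KO replicates 1 to 4 and 83.3, 66.6, 88.3 and 86.7 in WT replicates 1 to 4, a log2 fold change of -2.57 (SE 0.13, adjusted p = 0.000133 in edgeR's quasi-likelihood test). Total counts per library ranged from 13479069 to 17090152, and 7 of 14864 tested genes (0.0471%) passed an adjusted p of 0.05 in edgeR's quasi-likelihood test. The markers of the tissue, keratins of squamous epithelium and skeletal muscle genes, were high in all 8 libraries, but MGL KO replicate 2 and WT replicate 3 were low in differentiated squamous markers, at 2248 and 3173 summed normalized CPM against 6733 to 15077 in the other 6 libraries. MGL KO replicate 4 held 580.5 normalized CPM of 9 airway ciliated markers and 9596 of 7 airway secretory markers, against at most 16.2 and 56.6 in any other library. The 9 macrophage markers summed to between 162.2 and 206.9 normalized CPM in MGL KO and between 196.0 and 601.1 in WT libraries, the highest being WT replicate 1. In bulk tissue, fewer cells of a type and less RNA per cell cannot be told apart.

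None of the IL-1 and TNF genes passed the test. Of the 10 genes, 9 were kept by the filter on low counts, Tnf being the exception, and 0 of these 9 had an adjusted p under 0.05 in edgeR's quasi-likelihood test. The count was also 0 with edgeR's exact test, DESeq2 and limma-voom. At an unadjusted p under 0.05 there was 1 gene, Il1a, against 8.65% of all tested genes. The MGL KO libraries lay entirely on one side of the WT libraries for 1 of the 10 genes, again Il1a, against 6.02% of all tested genes. Over the 9 tested genes the median log2 fold change was -0.15, with 7 below 0, and over all tested genes it was 0.02.

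**Figure D1:**
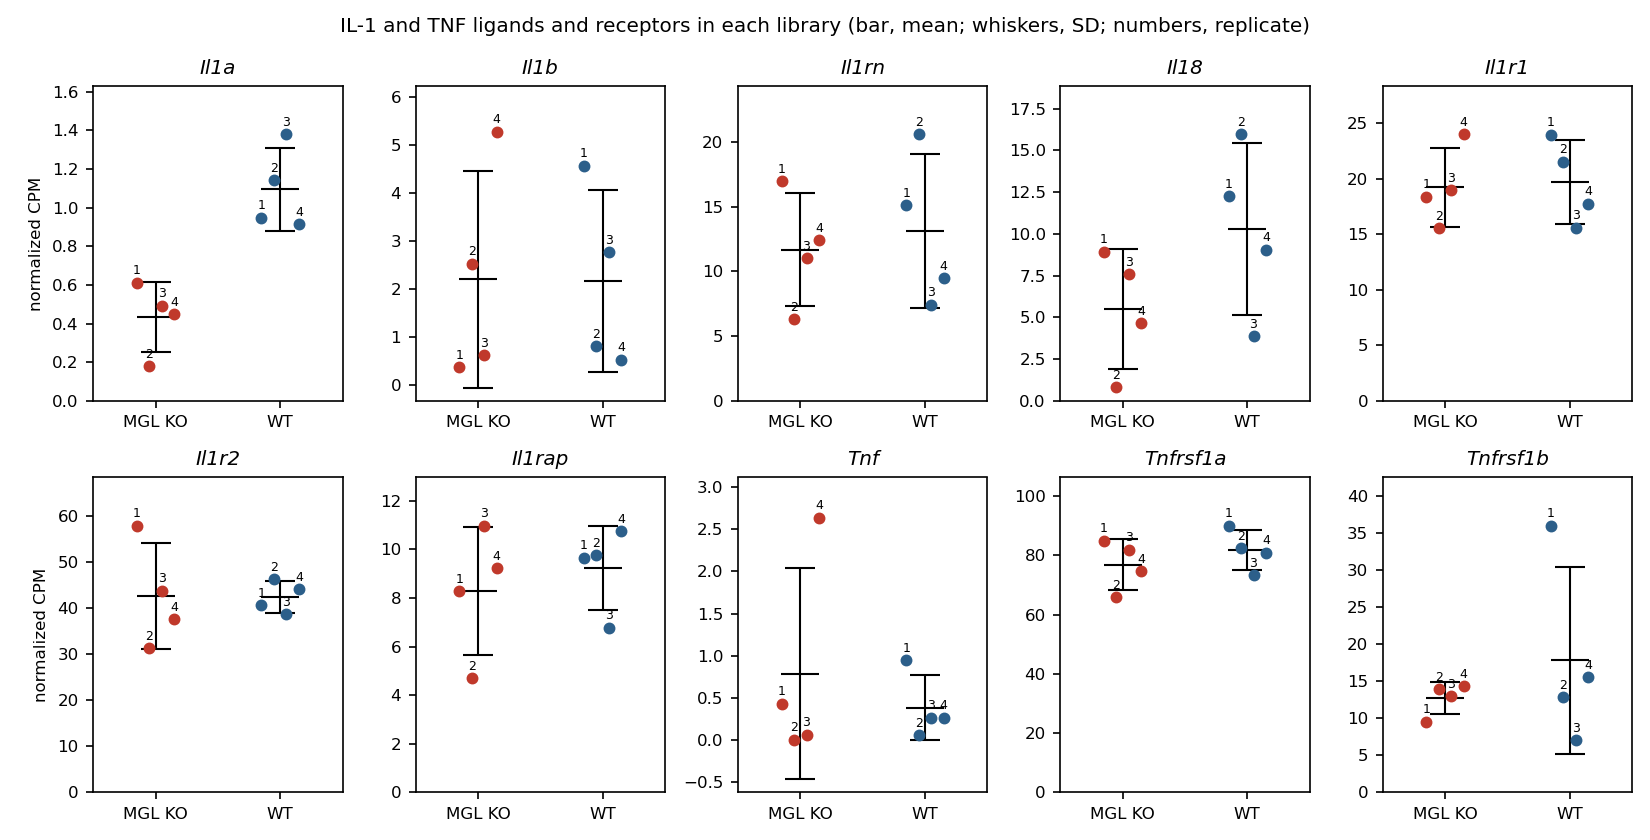
Normalized CPM (vertical axis) of the 10 genes in the 4 MGL KO (red) and 4 WT (blue) libraries, with numbers for the replicates, horizontal bars for means and whiskers for SD. The groups are apart for Il1a, from 0.180 to 0.612 in MGL KO against 0.913 to 1.38 in WT, and overlap for the other genes.

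Among the ligands, the groups were apart for Il1a at low counts, without passing the test, and overlapped for Il1b, Il18, Il1rn and Tnf. Il1a, whose product is released by damaged cells, was measured at 0.612, 0.180, 0.493 and 0.450 normalized CPM in MGL KO replicates 1 to 4 and at 0.948, 1.14, 1.38 and 0.913 in WT replicates 1 to 4. Every WT library was above every MGL KO library, which 3.3% of all tested genes also showed. These values rest on few reads, with 10, 2, 8 and 8 counts in the MGL KO and 17, 20, 21 and 14 counts in the WT libraries. Il1a had a log2 fold change of -1.29 (SE 0.37, 95% interval -2.13 to -0.44), with an adjusted p of 0.478 in edgeR's quasi-likelihood test. Il1a reached 10 counts in 4 WT libraries and in 1 MGL KO library, so it passed the filter through the group in which it was high, and its separation supports no difference on its own. On GRCm39 the gene lies on the reverse strand at chr2:129140291-129152098, close to Il1b at chr2:129206490-129213059, and the predicted gene Gm14023 overlaps both on the opposite strand.

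Il1b, the ligand that caspase-1 cleaves into its active form, stood at 0.367, 2.53, 0.617 and 5.28 normalized CPM in the MGL KO libraries and at 4.57, 0.799, 2.76 and 0.522 in the WT libraries. Each group held a pair of libraries above 2 and a pair below 1, and the highest value, in MGL KO replicate 4, came from 94 counts. The log2 fold change of 0.02 (SE 0.89, 95% interval -2.0 to 2.05, adjusted p = 0.996 in edgeR's quasi-likelihood test) leaves any ratio between 0.249 and 4.13 times the WT level within its interval. Without MGL KO replicate 4, the library with airway markers, it was -0.95, and the part of these transcripts in the Il1b level was not tested.

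Il18, a family member that epithelia store as a precursor, was at 8.94, 0.812, 7.58 and 4.66 normalized CPM in MGL KO and at 12.3, 15.98, 3.88 and 9.06 in WT libraries. The lowest value of each group was in the library with the fewest squamous transcripts, MGL KO replicate 2 and WT replicate 3, and the groups overlapped. Il18 had a log2 fold change of -0.90 (SE 0.63, 95% interval -2.32 to 0.52), with an adjusted p of 0.696 in edgeR's quasi-likelihood test. With the squamous marker score as a covariate the log2 fold change was -0.90, with an unadjusted p under 0.05 and an adjusted p of 0.298 in the same edgeR test. Leaving out single libraries moved it most without MGL KO replicate 2 (-0.54), without WT replicate 2 (-0.60) and without MGL KO replicate 1 (-1.23), and leaving out MGL KO replicates 2 and 4 together gave -0.32.

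Il1rn, the antagonist, was at 16.96, 6.32, 11.04 and 12.4 normalized CPM in MGL KO and at 15.1, 20.6, 7.43 and 9.45 in WT libraries. Here too MGL KO replicate 2 and WT replicate 3 were lowest in their groups. Il1rn had a log2 fold change of -0.17 (SE 0.37, 95% interval -1.01 to 0.67), with an adjusted p of 0.906 in edgeR's quasi-likelihood test.

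Tnf was the scarcest of the ligands in counts and was not kept by the filter. Its counts were 7, 0, 1 and 47 in the MGL KO libraries and 17, 1, 4 and 4 in the WT libraries, or 0.429, 0, 0.0617 and 2.64 against 0.948, 0.0571, 0.263 and 0.261 normalized CPM. The 0 in MGL KO replicate 2 allows up to 0.271 normalized CPM, by counting error alone. MGL KO replicate 4, with the airway markers, stood far above the other 3, whose mean was 0.163 ± 0.232 normalized CPM (SD, n = 3) against 0.382 ± 0.389 (SD, n = 4) in WT, or 0.194 ± 0.118 (SD, n = 3) without WT replicate 1, the highest of that group, and the part of airway tissue in its Tnf counts was not tested. The exact two-sided permutation test over all 8 libraries gave p = 1.0. Fitted without the filter, Tnf had a log2 fold change of 1.03 (adjusted p = 0.757, edgeR's quasi-likelihood test), whereas the difference in mean log2 CPM was -0.07, so no direction can be given.

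The IL-1 receptor genes were less scattered than the ligands, their highest library being 1.55 (Il1r1), 1.85 (Il1r2) and 2.34 (Il1rap) times the lowest, against 3.26 to 19.7 times for Il1a, Il1b, Il1rn and Il18. Counts differed too, at 2 to 21 for Il1a, 6 to 94 for Il1b, 9 to 280 for Il18 and 70 to 361 for Il1rn. They were 172 to 429 for Il1r1, 346 to 945 for Il1r2 and 52 to 178 for Il1rap. The part of counting error and of tissue content in this scatter was not tested. Il1r2 and Il1r1 lie side by side on the forward strand of chromosome 1, at chr1:40113239-40164391 and chr1:40264174-40356417 on GRCm39. Il1r1, the signaling receptor, was at 18.4, 15.5, 18.9 and 24.0 normalized CPM in MGL KO and at 23.9, 21.5, 15.6 and 17.7 in WT libraries, ranges that nearly coincide. Il1r1 had a log2 fold change of -0.04 (SE 0.18), and the 95% interval reached from 0.736 to 1.30 times the WT level (adjusted p = 0.963, edgeR's quasi-likelihood test). For Il1r2, the decoy, 57.9, 31.2, 43.7 and 37.5 normalized CPM in MGL KO stood against 40.6, 46.3, 38.6 and 44.1 in WT. The MGL KO libraries enclosed the WT range, with a coefficient of variation of 26.7% against 8.18%, and the log2 fold change was 0.01 (SE 0.18), with an interval from 0.761 to 1.33 times the WT level (adjusted p = 0.991, edgeR's quasi-likelihood test). Il1rap, the accessory chain, was measured at 8.27, 4.69, 10.98 and 9.22 normalized CPM in MGL KO and at 9.65, 9.76, 6.77 and 10.8 in WT. Its lowest value was in MGL KO replicate 2, and its log2 fold change was -0.15 (SE 0.27, adjusted p = 0.878, edgeR's quasi-likelihood test).

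Tnfrsf1a was the steadiest of the 10 genes. The MGL KO libraries held 85.0, 66.0, 81.9 and 74.8 normalized CPM and the WT libraries 90.1, 82.5, 73.4 and 80.9, so that the highest of the 8 values was 1.37 times the lowest. Its log2 fold change was -0.09 (SE 0.11), and the 95% interval, from 0.794 to 1.12 times the WT level, was the narrowest among these genes (adjusted p = 0.819, edgeR's quasi-likelihood test). Tnfrsf1a lies on chromosome 6, as Mgll does, at a distance of 36.5 Mb on GRCm39.

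Tnfrsf1b, in contrast, was set by 1 library. It was at 9.55, 13.9, 13.01 and 14.3 normalized CPM in MGL KO and at 36.0, 12.8, 7.03 and 15.6 in WT libraries. WT replicate 1, which also had the most macrophage transcripts, stood above all others, and the remaining 3 WT libraries enclosed the MGL KO range. The log2 fold change was -0.50 (SE 0.43, adjusted p = 0.751 in edgeR's quasi-likelihood test), and without WT replicate 1 it was 0.10. The mean of WT was 17.9 ± 12.6 normalized CPM (SD, n = 4) with this library and 11.8 ± 4.36 (SD, n = 3) without it, against 12.7 ± 2.17 (SD, n = 4) in MGL KO. The 9 macrophage markers all had an unadjusted p under 0.05 with lower values in MGL KO, where 638 of 14864 tested genes did, with a median log2 fold change of -0.95. Their sums overlapped between the groups, at 162.2 to 206.9 normalized CPM in MGL KO against 196.0 to 601.1 in WT with the highest in WT replicate 1, and 0 of the 9 passed the adjusted threshold in edgeR's quasi-likelihood test.

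**Figure D2:**
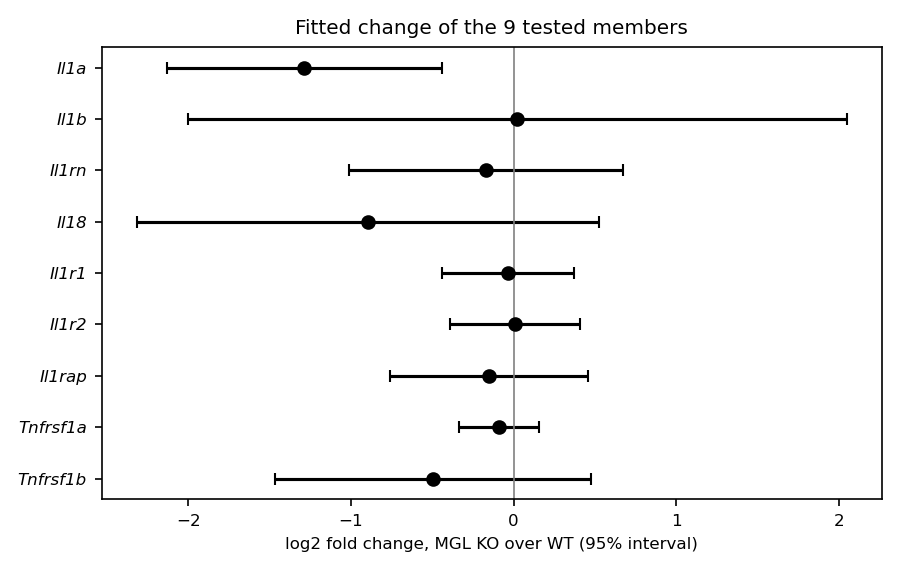
Fitted log2 fold change of MGL KO over WT (horizontal axis) for the 9 tested genes, with 95% intervals from edgeR's quasi-likelihood fit. The interval of Il1a, -2.13 to -0.44, lies below 0 and the others include 0, the widest being that of Il1b and the narrowest that of Tnfrsf1a.

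Scaled to length, the TNF receptor Tnfrsf1a and the decoy Il1r2 stood above the other genes. Dividing the normalized CPM by the exonic length of each gene in GENCODE on GRCm39 gave 25.2 per kb for Tnfrsf1a and 16.8 per kb for Il1r2 as means over the 8 libraries. Tnfrsf1a was above Il1r2 in 8 of 8 libraries, and Il1r2 did not overlap with the next gene. Tnfrsf1b (3.09 per kb), Il1r1 (2.85), Il18 (2.63) and Il1rn (2.24) followed as a group in which neighbors were not separated, each being above the next in 3 or 4 of 8 libraries. Below them stood Il1b (0.839 per kb) and Il1rap (0.573), again not separated, with 4 of 8 libraries in each order. Tnf (0.355 per kb) and Il1a (0.219) were lowest, and Tnf was above Il1a in 3 of 8 libraries. With the longest transcript as the length, the values of Il1rn (4.86 per kb) and Il18 (4.61) placed them ahead of Tnfrsf1b and Il1r1, while Tnfrsf1a and Il1r2 stayed on top and Il1b, Il1rap, Tnf and Il1a at the bottom.

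Ratios within a library do not depend on the scaling of libraries, and 5 were compared. The smallest exact permutation p that 4 against 4 libraries allow is 0.0286, so a single ratio with separated groups cannot have an adjusted p below 0.143 over the 5, and missing 0.05 says nothing about that ratio. Within a library the log2 ratio of Il1rn to Il1a counts was 4.72, 4.82, 4.40 and 4.70 in MGL KO and 3.96, 4.14, 2.40 and 3.33 in WT. All MGL KO libraries were above all WT libraries, with 21.1 to 28.2 counts of Il1rn for each count of Il1a against 5.28 to 17.6 (0.5 added to each count). The difference in means was 1.21 (adjusted p = 0.143, exact permutation). This restates the low Il1a counts of the MGL KO libraries given above and is no second measurement.

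Il1rn exceeded Il1b in every library, by 2.34 to 42.7 times, and the log2 ratio was 3.01 ± 2.08 in MGL KO and 2.97 ± 1.64 in WT (SD, n = 4 each). MGL KO replicates 2 and 4 and WT replicates 1 and 3, the libraries high in Il1b, had the low ratios in both groups. The decoy Il1r2 exceeded Il1r1 in counts by 1.56 to 3.15 times, with log2 ratios of 1.13 ± 0.42 in MGL KO and 1.12 ± 0.26 in WT (SD, n = 4 each). For Il1rap to Il1r1 the log2 ratios were -1.26 ± 0.39 and -1.09 ± 0.26, and for Tnfrsf1b to Tnfrsf1a -2.61 ± 0.40 and -2.44 ± 0.86. None of these 4 ratios differed beyond the spread between libraries, with exact permutation p-values between 0.429 and 1.0 and an adjusted p of 1.0 each.

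**Figure D3:**
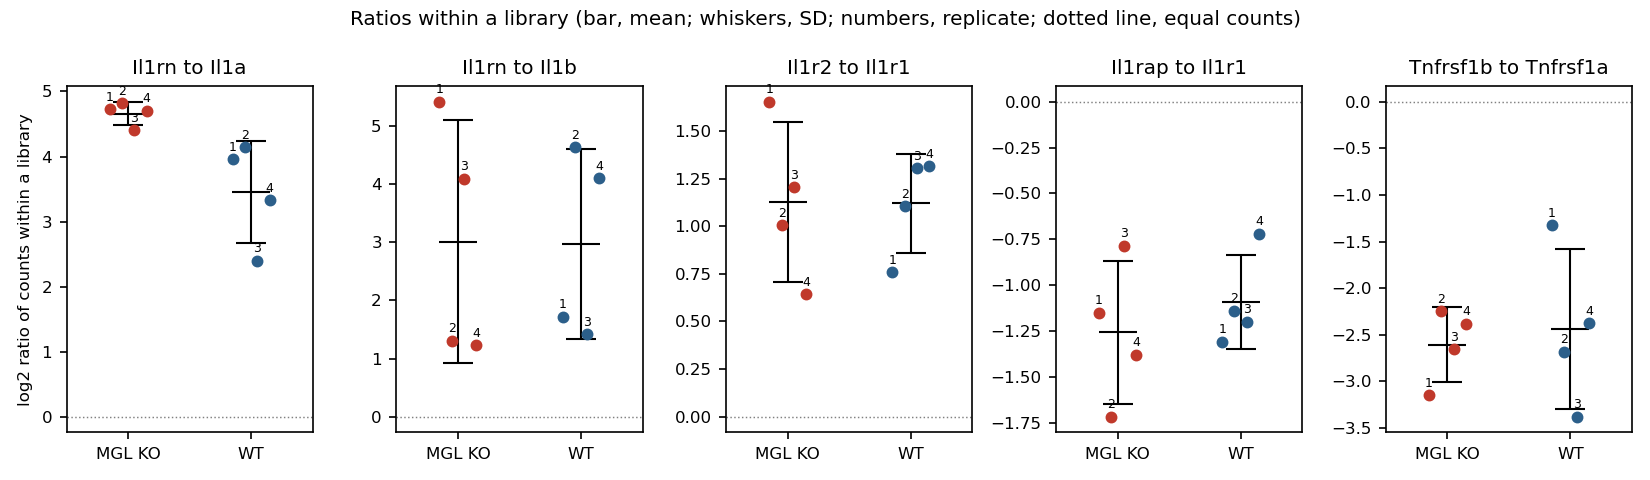
Log2 ratios of counts within a library (vertical axis, 0.5 counts added) for 5 pairs of genes in MGL KO (red) and WT (blue) libraries, with bars for means, whiskers for SD and a dotted line at equal counts. The Il1rn to Il1a ratios are apart, 4.40 to 4.82 against 2.40 to 4.14, and the other ratios overlap.

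The levels of several members varied with squamous marker transcripts over the libraries. Each gene was compared with the mean log2 CPM of 7 marker lists over the 8 libraries, 70 relations in all, of which 8 passed an adjusted p of 0.05 by exact permutation. Differentiated squamous markers (Krt4, Krt13 and 7 others) rose with Il18 (Pearson's r 0.91, Spearman's rho 0.79), Il1rn (0.89 and 0.81) and Il1r2 (0.88 and 0.93). Basal markers (Krt5, Krt14 and 5 others) rose with Il18 (0.92 and 0.83), Tnfrsf1a (0.88 and 0.81) and Il1rn (0.84 and 0.81). The exact permutation p of these 6 values of r lay between 0.00151 and 0.00362, with adjusted p = 0.0317, whereas those of rho lay between 0.00223 and 0.0279, with adjusted p-values from 0.0781 to 0.217, so that by rank no relation passed.

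Much of this rested on the 2 libraries poorest in differentiated squamous transcripts, MGL KO replicate 2 and WT replicate 3, which were also the highest in 7 skeletal muscle markers, at 80602 and 67528 summed normalized CPM against 31830 to 52063 in the other 6. Muscle markers were not among the lists related, and Il18 and Tnfrsf1a also had r of 0.78 and 0.80 with fibroblast and 0.75 and 0.67 with endothelial markers, without passing the adjusted threshold, so the part of each tissue in these levels was not tested. The relations of Il1rap with differentiated and basal markers (r 0.82 and 0.91, not passing the adjusted threshold) turned to -0.34 and -0.43 without them, and that of Tnfrsf1a with differentiated markers went from 0.82 to 0.24. Among those that had passed, without them r was 0.82 for Il1r2 with differentiated markers, 0.69 for Il1rn and 0.55 for Il18, and with basal markers it was 0.61 for Il18, 0.55 for Tnfrsf1a and 0.52 for Il1rn. Deviations from the group means gave r of 0.97 for Il18 and 0.89 each for Il1rn and Il1r2 with differentiated markers, but these hold the same 2 libraries, 1 in each group. Il1rap rose with endothelial markers (r 0.93, rho 0.76, exact permutation p = 0.00206 and 0.0368, adjusted p = 0.0317 and 0.257). Its r was 0.93 also without MGL KO replicates 1 and 2, the libraries farthest from the median in that score, a fit that kept WT replicate 3. With fibroblast markers Il1rap had r of 0.84 and rho of 0.83, not passing the adjusted threshold (exact permutation, adjusted p = 0.0536 and 0.191).

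Il1r1 rose with the neutrophil score (r 0.90, rho 0.83, exact permutation p = 0.0033 and 0.0154, adjusted p = 0.0317 and 0.191), with r of 0.81 without MGL KO replicates 2 and 4. That score held 5 of 9 listed markers, since Ly6g, Retnlg, Mmp8 and Ngp, which define neutrophils, stayed below 1 normalized CPM in every library, and the list summed to between 6.41 and 24.9 normalized CPM. Tnfrsf1b had r of 0.84 with macrophage markers (rho 0.62, exact permutation p = 0.0143 and 0.115, adjusted p = 0.0714 and 0.447), and 0.23 without WT replicates 1 and 4, so this relation rested on them. Tnf, at 0 to 47 counts, had r of 0.85 with the neutrophil score (rho 0.69, exact permutation, adjusted p = 0.0562 and 0.374). With airway ciliated markers its r was 0.69 (rho 0.48, exact permutation, adjusted p = 0.200 and 0.585). Without MGL KO replicates 2 and 4 these values of r were 0.58 and -0.39. Il1b and Il1a passed with none of the 7 lists. The values of Il1b were -0.58 with differentiated squamous markers and 0.33 with macrophage markers, and those of Il1a lay between -0.16 and 0.62. Eosinophil markers were too scarce to relate, at 0.114 to 2.06 summed normalized CPM, with no count for Epx.

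**Figure D4:**
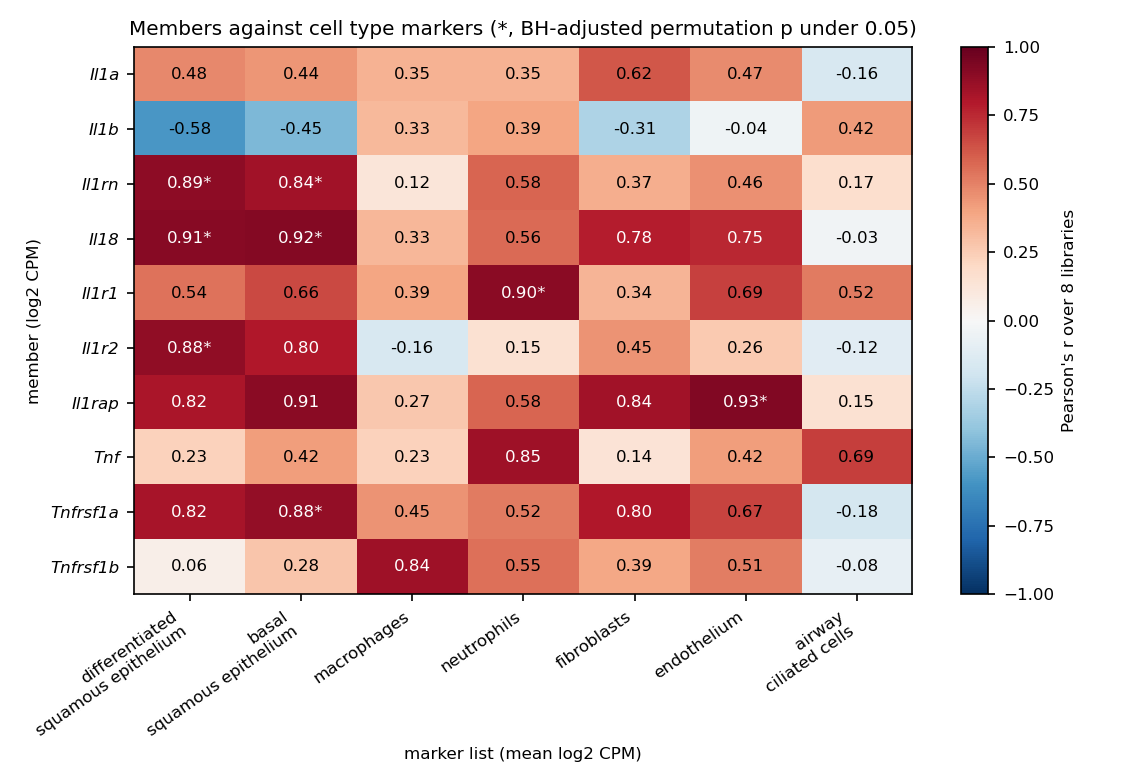
Pearson's r over 8 libraries between the log2 CPM of each of the 10 genes (rows) and the mean log2 CPM of 7 marker lists (columns), with asterisks at an adjusted permutation p under 0.05. The squamous columns are high for Il1rn, Il18, Il1r2, Il1rap and Tnfrsf1a, from 0.80 to 0.92, those of Il1rap turning negative without MGL KO replicate 2 and WT replicate 3, and negative for Il1b, at -0.58 and -0.45.

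The genes most alike in pattern, by Pearson's r of log2 CPM over the same 8 libraries and given as a description, were drawn from 11366 candidates or 1 fewer. The best of so many candidates over 8 libraries have a high r by selection. No test was made of them, so they show no shared regulation, and those of Il1a rest on 2 to 21 counts. For Il1a they were Nradd, Trim11 and Stx17, with r from 0.988 to 0.992, and for Il1b Elmod2, Psme1 and Cep162, with r from 0.906 to 0.928. Il1rn was followed by Zfp667 and Hebp2 (0.970 to 0.983) and Il18 by Zfp385a, Acap2 and Entpd2 (0.976 to 0.980). Among receptors, Il1r1 was most like Nipsnap1, Fam107b and G2e3 (0.968 to 0.981), Il1r2 most like Vps9d1, Rnd3 and the epidermal protease inhibitor gene Spink5 (0.939 to 0.962), and Il1rap most like Hcfc1, Gcn1 and Zswim4 (0.984 to 0.985). Tnfrsf1a was nearest to Plxdc2, Rcn1 and Thbd (0.957 to 0.971), and Tnfrsf1b to Arsa, Tgfb1 and the leukocyte lysosomal gene Laptm5 (0.976 to 0.979).

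The other genes of the pathway were described from 5 lists holding 78 genes, of which 67 were tested. None passed the adjusted threshold in edgeR's quasi-likelihood test or with limma-voom. Nfkbia and Saa3 passed in edgeR's exact test on kept genes and in DESeq2, and Saa3 alone in the exact test on all counted genes. Over all genes, 64 of 14864 passed in the exact test on kept genes and 42 of 22721 in that on all counted genes. DESeq2 passed 133 of 22721. At an unadjusted p under 0.05, 3 genes were higher and 5 lower in MGL KO, or 8 of 67, beside 1285 of 14864 tested genes (8.65%; 647 higher and 638 lower). The median log2 fold change of the 67 was -0.03, with 31 above and 36 below 0, beside 0.02 over all tested genes. Of the 67, the groups were apart for 2 higher in MGL KO, Nfkbia and Traf2, and 2 lower, Il36g and Traf5. Over all tested genes the share was 6.02% (404 higher and 491 lower). They were named for that separation, so it supports no difference on its own.

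Nfkbia, which encodes the inhibitor IκBα and is itself an NF-kB target, had the lowest adjusted p of them. Its level was 88.6, 85.1, 86.6 and 90.0 normalized CPM in MGL KO and 59.2, 57.5, 54.2 and 70.5 in WT. All MGL KO libraries were above all WT libraries, and the log2 fold change was 0.54 (SE 0.10, 95% interval 0.31 to 0.76), with an adjusted p of 0.222 in edgeR's quasi-likelihood test. Other settings gave Nfkbia adjusted p-values from 0.000333 (DESeq2) to 0.769. The list of 12 NF-kB subunits and inhibitors had 8 genes above and 4 below 0, with a median of 0.03, and Nfkbia alone reached an unadjusted p under 0.05.

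Of the other IL-1 family ligands and receptors, 11 of 13 were tested and 8 of the 11 lay below 0, with a median log2 fold change of -0.37. MGL KO replicate 2, poor in squamous markers, was the lowest of the 8 libraries in Il36a, Il36b, Il36g, Il36rn, Il33 and Il1rl2. It was not the lowest in Il1rl1, Il18r1, Il18rap, Il18bp and Sigirr. WT replicate 3 was the lowest WT library in the first 6 genes except Il36g. Apart from Il36g, these genes were named after their values were seen. The part of squamous tissue in these levels was not tested. Il36g, the epithelial IL-36γ, was at 5.27, 1.62, 4.01 and 3.15 normalized CPM in MGL KO and at 6.02, 7.93, 8.35 and 13.5 in WT. The groups were apart, and the log2 fold change was -1.34 (SE 0.38, adjusted p = 0.478 in edgeR's quasi-likelihood test). Il18r1, a receptor chain for IL-18 chosen for mention after its values were seen, was at 31.4 normalized CPM in MGL KO replicate 4, the library with airway markers, and at no more than 4.69 in any other library.

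In the list of cytokine processing and shedding, 7 of 10 tested genes were below 0 and the median was -0.56. The macrophage markers were lower too, 9 of 9 with a median of -0.95, and WT replicate 1, which held the most of them, was the highest of the 8 libraries in 7 of these 10 genes, Aim2, Gsdmd, Nlrp1b, Nlrp3, Nlrc4, Adam17 and, nearly tied with WT replicate 4, Casp1, and not in Pycard, Casp4 and Rhbdf2, all named after their values were seen. Their part in these levels was not tested. Casp1, the protease that activates IL-1β and IL-18, was at 13.7 ± 3.90 normalized CPM in MGL KO and 19.7 ± 2.65 in WT (SD, n = 4 each), with a log2 fold change of -0.52 (adjusted p = 0.570, edgeR's quasi-likelihood test) that was -0.34 without MGL KO replicate 2. Aim2, a DNA sensor upstream of it, was at 1.89 ± 0.45 and 3.86 ± 2.75 normalized CPM (SD, n = 4 each), with the highest value, 7.98, in WT replicate 1. The log2 fold change of Aim2 was -1.02 (adjusted p = 0.578, edgeR's quasi-likelihood test), and without that library it was -0.39. Both were chosen for mention after their values were seen, being the 2 with an unadjusted p under 0.05.

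The 22 adaptors and kinases were evenly split, 11 above and 11 below 0, with a median of 0.01. Traf2 and Traf5, adaptors of TNF receptors, had separated groups, as 6.02% of all tested genes did, with small differences in opposite directions. Traf2 was at 31.0 ± 1.86 normalized CPM in MGL KO and 25.8 ± 1.90 in WT (log2 fold change 0.27, adjusted p = 0.523), and Traf5 at 14.1 ± 2.43 and 18.3 ± 1.66 (log2 fold change -0.37, adjusted p = 0.559), with SD over n = 4 and p from edgeR's quasi-likelihood test.

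Of 20 NF-kB response genes, 12 were tested, 6 above and 6 below 0, with a median of -0.02. Saa3, an acute phase gene, was singled out after its values were seen, at 1.35, 0.0902, 1.11 and 3.03 normalized CPM in MGL KO and at 154.8, 50.1, 2.96 and 71.5 in WT. WT replicate 3 lay just below MGL KO replicate 4, so the groups overlapped, and the other 3 WT libraries were far above every MGL KO library. Saa3 had a log2 fold change of -5.56 (SE 1.11, adjusted p = 0.262 in edgeR's quasi-likelihood test), and other settings gave adjusted p-values from 0.000559 (DESeq2) to 0.769. Lcn2 and the chemokine genes Cxcl5 and Ccl20, also chosen after their values were seen, were high in MGL KO replicate 4 only, at 226.9, 161.4 and 13.5 normalized CPM, against at most 9.71, 0.948 and 0.130 in the other 7 libraries. The log2 fold change of Lcn2 was 3.82, and it reversed to -0.33 without that library and to -0.48 with the airway covariate. Il6 and Csf2, 2 widely used readouts of IL-1 signaling and chosen for mention in the same way, were close to 0, with 9 counts and 1 count over all 8 libraries.

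**Figure D5:**
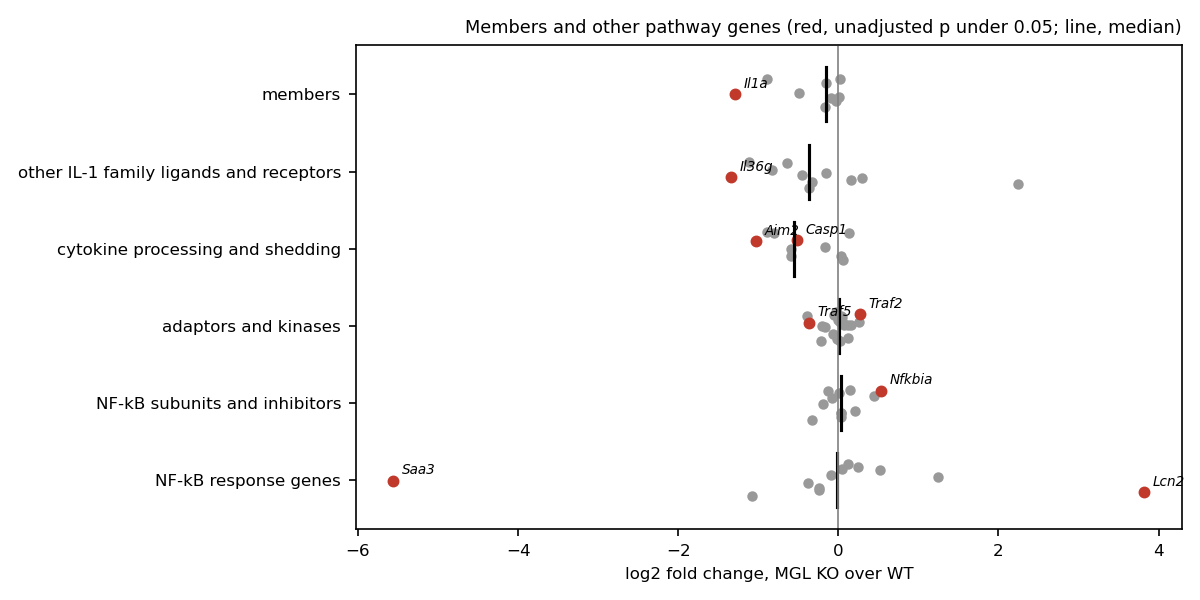
Log2 fold change of MGL KO over WT (horizontal axis) for the 9 tested IL-1 and TNF genes and the 67 tested genes of 5 pathway lists (rows), with red points at an unadjusted p under 0.05 and vertical lines at the median of each list. The medians lie between -0.56 and 0.03, and Saa3 at -5.56 and Lcn2 at 3.82, the latter being -0.33 without MGL KO replicate 4, lie farthest from 0.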

How the data were processed

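Poly(A) RNA from frozen esophagi was sequenced, and per the labels the reads were handled with FastQC 0.11.9, Cutadapt and STAR 2.7.10b on GRCm39. The authors deposited whole-number counts for each gene symbol and library, without normalization. The counting tool, its use of strand and the annotation are not given in the sources used here, and reads of overlapping genes may be mixed (on the opposite strand Il1a, Il1b, Il18, Il1r2, Il1rap, Tnfrsf1a and Tnfrsf1b, on the same strand Il1r1, Il1r2, Il1rap and Tnfrsf1b). Genes were kept by filterByExpr at a minimum count of 10, with TMM factors and edgeR 4.0.16 in R 4.3.3. MGL KO was compared with WT by the quasi-likelihood test with Benjamini-Hochberg adjustment at 0.05, and the study's methods name the exact test, run here as an alternative. The script was tested on simulated data. Standard errors and 95% intervals come from the test statistic. Log2 CPM used a prior count of 1, and ratios had 0.5 counts added to each count. Permutation tests over libraries were exact. Marker scores were means over the tested genes of a list, and relations were adjusted over all 70. A count of 0 allows 3 counts, which equal 0.167 to 0.271 normalized CPM. Promoter sequences were RefSeq's on GRCm38.p6, and gene positions and lengths GENCODE's on GRCm39.

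Named genes were Mgll, the members, of each pathway list every gene past the threshold and up to 2 rises and 2 falls among tested genes with separated groups, markers at or near 0, and for each tested member the 3 genes with a mean of at least 5 normalized CPM and the highest Pearson's r, without predicted or antisense models, of which 1 gene is not reported here. A few other pathway genes were named after their values were seen, as said beside each. The members and lists were chosen with earlier results of these data known. As alternatives, edgeR's exact test on kept or on all counted genes, limma-voom 3.58.1 with quality weights, DESeq2 1.42.0, a robust fit, other scalings and filters, the replicate number as a block, marker scores as covariates, a threshold of 0.1 and leaving out each library were run. Leaving out MGL KO replicates 2 and 4 together was added after the data were seen.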

Additional observations from a re-analysis of the deposited data

Results flagged for a closer look

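Single libraries were compared with the others of their group for the 10 members, the 5 ratios and the 7 marker scores, 44 groups of 4 values in all. In 3 of them a library stood apart by Dixon's test at the 95% level, where chance gives about 1 in 20, or 2.2 of 44. Tnf was at 2.64 normalized CPM in MGL KO replicate 4, the next highest MGL KO library being at 0.429. The airway ciliated marker score was 5.61 on the log2 scale in the same library, the next being 0.96. The basal squamous marker score of WT replicate 3 was low, at 8.15 on the log2 scale against 8.64 in the next WT library. Tnfrsf1b in WT replicate 1 did not reach the critical value.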

How the results depend on the processing

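No IL-1 or TNF gene passed the adjusted threshold under any alternative, and the sign of Il18 was kept in every fit that gave it a value. That of Il1a was kept too, as its separated groups fix it when a library is left out. Il18 was at -0.54 to -1.23 with 1 library left out and at -0.32 without MGL KO replicates 2 and 4. Tnf was fitted in 3 settings, each with MGL KO replicate 4, so the stability of its sign was not tested. The adjusted p of Il1a ranged from 0.276 to 0.923, and with at least 10 counts required in every library it was not tested. Over all genes the 7 calls became 64 (exact test on kept genes), 42 (exact test on all counted genes), 133 (DESeq2), 25 (limma-voom), 2 (robust fit, no filter, airway ciliated covariate, or without MGL KO replicates 2 and 4), 11 (squamous covariate), 13 (threshold 0.1) and 2 to 5 with 1 library left out. Pathway calls went from 0 to 2 (exact test on filtered genes, and DESeq2) and 1 (exact test on all genes). The replicate numbers did not pair the samples, the correlations of their deviations being -0.14, -0.28, -0.14 and 0.08. With the replicate block all-gene calls were 2, Il1b was at -0.17 and Il1r2 at -0.0250, and no other call changed.

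Signs near 0 changed. Il1b was at -0.53 with limma-voom, -0.00610 with upper quartile factors, -0.16 and -0.78 with the squamous and airway covariates, -2.12 without MGL KO replicates 2 and 4, and -0.95 to 0.70 with 1 library left out. Leaving out those MGL KO libraries gave 0.0890 for Il1rn, 0.0601 for Il1rap and 0.0317 for Tnfrsf1a. Il1r1 was at 0.0013 with the squamous covariate, and Il1r2 at -0.0128 with upper quartile factors and -0.0253 with library size alone. With 1 library left out the ranges were -0.40 to 0.13 (Il1rn), -0.16 to 0.0724 (Il1r1), -0.17 to 0.13 (Il1r2), -0.32 to 0.0416 (Il1rap) and -0.75 to 0.10 (Tnfrsf1b). The members with separated groups numbered 1, or 1 to 2 with 1 library left out, and 2 without WT replicate 3. Relations with markers passed in 8 cases, in 11 with a prior count of 0.25 and in 17 with library size alone. With 1 library left out, the exact permutation test of the ratios cannot go below p = 0.0571. The causes were not tested. Counts were lowest for Tnf, Il1a and Il1b, with means of 10.1, 12.5 and 35.5.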
